A study of Mus musculus with 6 samples.

Results

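The genes described here encode the enzymes and regulators of polyamine metabolism, measured in the liver of newborn mice with and without an active human *SRY* transgene. The members were the probes of the deposited liver table whose symbol was *Gm853*, *Odc1*, *Oaz1*, *Oaz2*, *Azin1*, *Amd1*, *Srm*, *Sms*, *Sat1* or *Smox*. Of these 10 symbols 7 were matched, by 13 of the 25697 probes of the table. *Oaz1*, *Amd1* and *Sat1* matched 0 probes and were not analysed here. *Gm853*, the older name of *Ldc1*, was selected on its measured rise between the groups compared below, so its values are given as a description without a test. The other symbols came from the known pathway and were chosen with earlier results of these data known.

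Livers came from male FVB mice at postnatal day 6, with 3 hSRY-ON and 3 hSRY-OFF animals and 1 bead array each. All carry, per the methods, the FVB/N background. In the methods hSRY-OFF stands for mice with the *Signalox-hSRY* transgene (a single copy at the *H11* locus, from 1 line) that had not been recombined by Cre, and in the recombined hSRY-ON mice FLAG-tagged human *SRY* and *EGFP* follow the *CAG* promoter, which is active in most tissues. Cre came from the oocytes of *Ddx4-Cre* mothers, and the hSRY-ON pups used for the arrays did not themselves carry *Ddx4-Cre*. Elsewhere in the paper control litter mates are pups that lack *Signalox-hSRY*, being non-transgenic or carrying *Ddx4-Cre* only. These descriptions differ, and which genotype the array controls had is not certain. Unrecombined carriers would, per the paper, express a red fluorescent protein from the *CAG* promoter. Recombination in crosses with *Ddx4-Cre* mothers is described as highly efficient, and the litters of unrecombined carriers were not given. Which pups shared a litter was not given in the sources used here. No probe was assigned to the transgene. Between 40.2% and 41.9% of probes were detected per array, with a median deposited intensity of 146.9 to 164.7.

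Polyamines (putrescine, spermidine and spermine) are small cations that bind nucleic acids and are needed for growth and translation. Ornithine decarboxylase, encoded by *Odc1*, makes putrescine from ornithine. The synthases encoded by *Srm* and *Sms* then add aminopropyl groups, donated by decarboxylated S-adenosylmethionine from *Amd1*, to form spermidine and spermine. Antizymes (*Oaz1*, *Oaz2*) bind ornithine decarboxylase and send it to the proteasome, and the antizyme inhibitor encoded by *Azin1*, itself an inactive relative of the enzyme, captures antizyme. Acetylation by *Sat1* and oxidation of spermine by *Smox* run the pathway backwards. The protein of *Gm853* belongs to the same decarboxylase family.

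The start regions of *Gm853*, its relative *Odc1* and the antizyme gene *Oaz2* are shown to set the member with the largest difference beside the classical enzyme of its family and the antizyme gene that was called. The sequences are from RefSeq on build GRCm38.p6, in which 8 of the 10 members had an entry. Each holds the part of the 250 bases before the listed start that lies outside the annotated gene, read 5′ to 3′ on the strand of the gene. *Gm853* lies at chr4:130222429-130222545 on the minus strand, *Odc1* at chr12:17544623-17544807 on the plus strand and *Oaz2* at chr9:65676298-65676547 on the plus strand. Capitals mark TGAGTAA in *Gm853* and the GC box GGGCGG, or CCGCCC where it lies on the other strand, in *Odc1* and *Oaz2*.
Gm853: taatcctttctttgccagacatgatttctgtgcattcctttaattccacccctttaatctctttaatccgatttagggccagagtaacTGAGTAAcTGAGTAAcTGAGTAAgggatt
Odc1: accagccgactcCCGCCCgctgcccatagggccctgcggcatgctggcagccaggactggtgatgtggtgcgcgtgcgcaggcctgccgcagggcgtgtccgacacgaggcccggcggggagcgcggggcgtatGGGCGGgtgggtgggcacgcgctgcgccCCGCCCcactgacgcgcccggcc
Oaz2: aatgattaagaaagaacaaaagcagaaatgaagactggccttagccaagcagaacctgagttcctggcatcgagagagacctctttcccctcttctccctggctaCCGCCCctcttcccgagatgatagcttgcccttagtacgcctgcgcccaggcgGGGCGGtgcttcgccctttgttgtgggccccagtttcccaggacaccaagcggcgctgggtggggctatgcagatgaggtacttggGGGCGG

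The regions differed in composition. Over the full 250 bases before the start, G and C made up 48% of the *Gm853* region, 80% of the *Odc1* region and 58% of the *Oaz2* region, against a median of 52.4% over 32851 RefSeq start regions. GGGCGG, searched on both strands, was present 4 times before *Odc1*, 3 times before *Oaz2*, 6 times before *Smox* and 0 times before *Gm853*, *Oaz1* and 1 of the 2 starts of *Sms*, and 32.7% of all regions of this length hold it. *Gm853* instead held 3 copies of TGAGTAA in a row, each set apart by 1 base. This motif was picked after the sequence had been seen. It occurs in 2.25% of all regions, and 1 region of the 32851, that of *Gm853*, had at least 3 copies on a strand. AACAAT (a form of the core bound by SRY and SOX proteins), CACGTG (the E-box bound by Myc) and TATAAA were searched on both strands. These letters were found 0 times in the windows of *Gm853*, *Odc1*, *Oaz2*, *Smox*, *Oaz1*, *Amd1* and *Sat1*. Other forms of the core were not searched, and the *Oaz2* region printed above holds AACAAA on both strands. The absence of AACAAT thus does not show that these windows lack the core. Of the 2 windows of *Sms*, 1 held AACAAT and CACGTG once each. AACAAT is present in 9.42%, CACGTG in 6.02% and TATAAA in 12.4% of all regions. These are matches of letters only, and binding was not measured.

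The largest difference among the members was at *Gm853* (ILMN_2956688). Its deposited intensities were 129.3, 137.7 and 128.2 in the hSRY-OFF livers and 1117, 559.9 and 776.9 in the hSRY-ON livers. The probe was detected on 0 of 3 hSRY-OFF and on 3 of 3 hSRY-ON arrays, and the groups were far apart. After background correction and quantile normalization the values were 4.45, 4.53 and 4.55 against 9.79, 8.81 and 9.55 on the log2 scale. The intensity in hSRY-ON livers was at least 12.5-fold higher, a bound that sets the hSRY-ON mean against the lowest detected signal of each hSRY-OFF array. The fitted difference of 4.87 ± 0.24 (SE, n = 3 each) is taken against signal that was not detected, and it was 2.61 with no background correction. The livers were measured as whole tissue. More or fewer cells of a type and more or less RNA per cell therefore cannot be told apart, here or below.

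**Figure D1:**
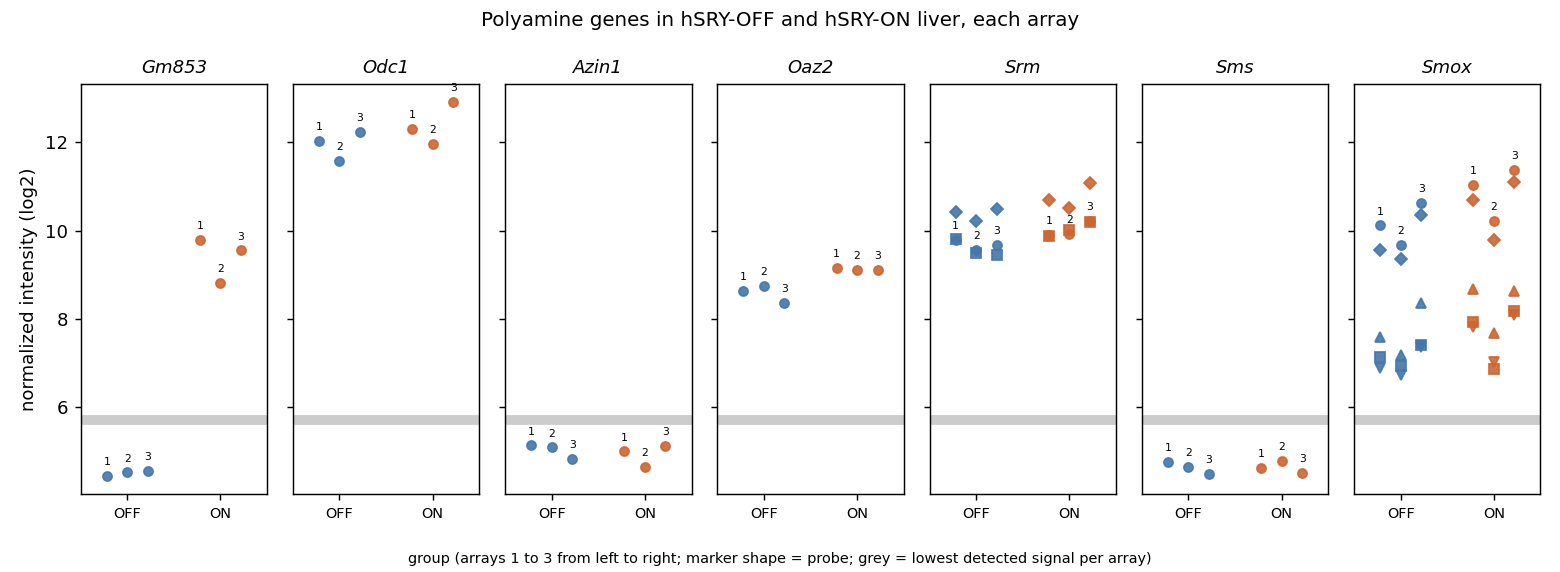
Normalized log2 intensity (vertical axis) of each polyamine probe on the 3 hSRY-OFF (blue) and 3 hSRY-ON (orange) arrays, numbered by replicate, with 1 marker shape per probe of a gene and a grey band for the lowest detected signals. *Gm853* moves from below the band to 8.81 to 9.79, *Azin1* and *Sms* stay below it in both groups, and the remaining genes lie above it on every array.

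The genes whose patterns were nearest to that of *Gm853* were sought by the root mean square distance between log2 profiles over the 6 arrays, each centred on its own mean. Among 10733 other tested probes the nearest, 1 probe per symbol, were *Gpx3*, encoding a secreted glutathione peroxidase, at a distance of 0.50, and *Apoa4*, an apolipoprotein gene, at 0.55. *Trib3*, a pseudokinase gene of the amino acid stress response, followed at 0.56, then *Cpt1b*, encoding the muscle form of a fatty acid import enzyme of mitochondria, at 0.61 and *Ptpn14*, a phosphatase gene, at 0.62. The differences of *Gpx3*, *Apoa4* and *Trib3*, detected on every array, were 4.33, 4.47 and 3.86. *Cpt1b* and *Ptpn14* were detected on all hSRY-ON arrays and on 0 hSRY-OFF arrays, as was *Gm853*, and were at least 10.01-fold and at least 9.33-fold higher. Distances between such probes include values below the detection limit. *Gm853* was chosen for its rise, and the step between the groups makes up most of its profile. Probes with a rise of like size are therefore near it by construction, and nothing further is read from this list.

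The genes next to *Gm853* in the RefSeq order of assembly GRCm38.p6 were then read, a choice made after the data had been seen. The nearest protein-coding gene with a probe on each side was called higher in hSRY-ON livers, as were 15.8% of all tested probes. *Tinagl1* (listed as *Tinagl*, ILMN_2976129), encoding a secreted matrix protein, went from 8.19 ± 0.12 to 9.21 ± 0.13 (SD, difference 1.02 ± 0.13, SE, limma adjusted p 0.00155), and *Serinc2* (ILMN_2826264), encoding a membrane protein of the serine incorporator family, from 7.17 ± 0.09 to 8.12 ± 0.57 (SD, n = 3 each, difference 0.95 ± 0.27, SE, limma adjusted p 0.0304). The call of *Serinc2* was lost when any hSRY-OFF array was left out (0.076 to 0.101), with no filter (0.0644) and when arrays were scaled by a trimmed mean without background correction (0.0616). Farther out, *Hcrtr1* and *Fabp3* were not detected on any array. *Pef1* differed by -0.02 ± 0.13 (adjusted p 0.936) and *Zcchc17*, with the 1 of its 2 probes that was detected, by -0.54 ± 0.18 (SE, adjusted p 0.0581).

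The remaining members differed much less. Besides *Gm853*, 12 probes were in the table and 10 of them, from 4 genes, were detected on at least 3 of the 6 arrays and tested. Of these 10 probes 1 was called higher and 0 lower in hSRY-ON livers at a limma adjusted p under 0.05, where 33.1% of all tested probes were called, 15.8% higher and 17.3% lower. All hSRY-ON values lay above all hSRY-OFF values at 4 of the 10 probes, against 25.4% of all tested probes. The fitted differences of all 10 were above 0, as were 51.4% of all tested probes, with a median of 0.53 against 0.02 over all tested probes. The 5 *Smox* and 3 *Srm* probes each read 1 gene and are not independent, and nothing is read from these counts because the members were chosen with this contrast known. The count of higher calls moved between 0 and 5 when single arrays were left out, where 17.4% to 37.6% of all tested probes were called in either direction.

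**Figure D2:**
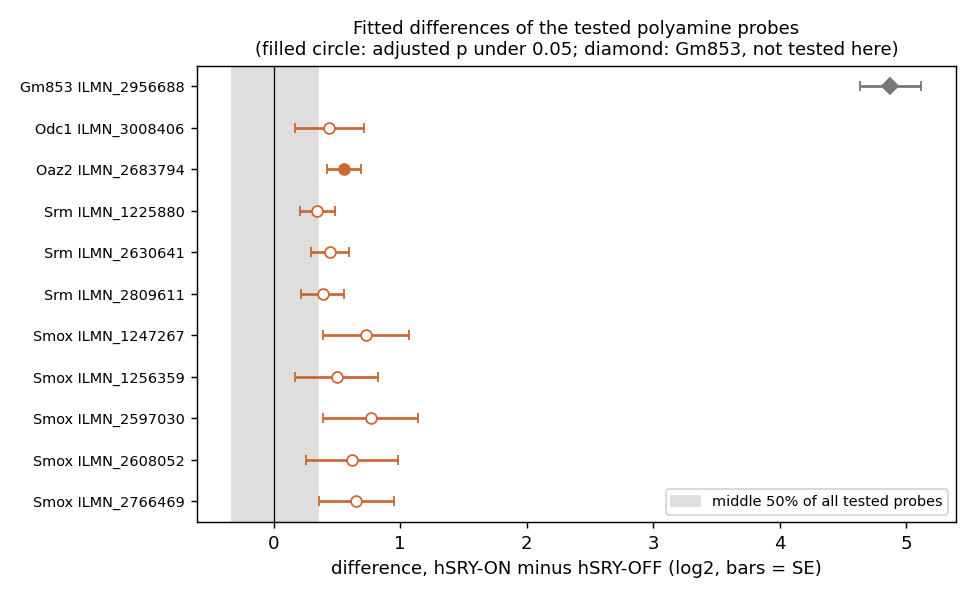
Fitted difference, hSRY-ON minus hSRY-OFF, on the log2 scale for each tested polyamine probe, with bars for the SE. *Gm853* (diamond, no test) stands at 4.87, the filled circle marks the 1 probe with an adjusted p under 0.05 (*Oaz2*), and the open circles of *Odc1*, *Srm* and *Smox* lie between 0.34 and 0.77, at and above the upper edge of the grey band of the middle 50% of all tested probes.

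*Odc1* (ILMN_3008406), which makes putrescine, had high intensities in both groups. The log2 values were 12.03, 11.57 and 12.23 in hSRY-OFF and 12.30, 11.96 and 12.90 in hSRY-ON livers. The groups overlapped, since hSRY-ON replicate 2 lay below hSRY-OFF replicates 1 and 3. The difference of 0.44 ± 0.27 (SE, n = 3 each) was not past the threshold (limma adjusted p 0.244), and its 95% interval ran from -0.19 to 1.07. It thus spans no change as well as a rise of over 1 log2 unit. Without hSRY-ON replicate 2 the difference was 0.66 and without hSRY-ON replicate 3 it was 0.18, both not called. The nearest profiles to *Odc1* by the same distance were those of *Pqlc3* (0.08), *Plp2* (0.09), *Herc4* (0.10), *Abca7* (0.11) and *Pde1b* (0.12), over the 6 arrays.

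Among the regulators of the enzyme, the antizyme gene *Oaz2* (ILMN_2683794) was the 1 member called. Its values were 8.63, 8.74 and 8.36 in hSRY-OFF and 9.16, 9.11 and 9.11 in hSRY-ON livers. All hSRY-ON values lay above all hSRY-OFF values, and the hSRY-ON arrays were nearly alike (SD 0.03 against 0.19 in hSRY-OFF livers). *Oaz2* rose by 0.55 ± 0.13 (SE, n = 3 each, 1.47-fold, limma adjusted p 0.0178, 95% interval 0.24 to 0.87). The alternatives gave adjusted p-values from 0.00909 to 0.0795. The call was lost with median scaling (0.0795) and on leaving out hSRY-ON replicate 1 (0.053), hSRY-OFF replicate 1 (0.0598) or hSRY-OFF replicate 3 (0.0532). *Azin1* (ILMN_1238799), encoding the antizyme inhibitor, had deposited intensities of 164.4, 164.8 and 140.1 in hSRY-OFF and 160.9, 137.6 and 148 in hSRY-ON livers. It was detected on 0 of the 6 arrays and was not tested.

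The aminopropyl synthases were read next. All 3 probes of *Srm*, the spermidine synthase gene, had every hSRY-ON value above every hSRY-OFF value, as had 25.4% of all tested probes. They read 1 gene on the same arrays and are not independent, and 0 of them passed the threshold. For ILMN_2630641 the values were 9.82, 9.50 and 9.44 in hSRY-OFF and 9.88, 10.02 and 10.18 in hSRY-ON livers. The gap between the groups was narrow, at 9.82 against 9.88. Its difference was 0.44 ± 0.15 (SE, limma adjusted p 0.0579, 95% interval 0.09 to 0.79). This probe was past the threshold with no background correction (0.0366), normexp without detection p-values (0.0418), an offset of 50 (0.0455) and limma-trend (0.0402). For ILMN_1225880 the values were 9.78, 9.56 and 9.67 against 9.91, 9.92 and 10.22, and for ILMN_2809611 they were 10.41, 10.22 and 10.49 against 10.70, 10.51 and 11.07. Their differences were 0.34 ± 0.14 (adjusted p 0.0928) and 0.39 ± 0.17 (SE, adjusted p 0.118), so the 3 probes of this gene gave similar sizes. *Sms* (ILMN_1232323), encoding spermine synthase, was detected on 0 of the 6 arrays, at deposited intensities of 123.6 to 149 in hSRY-OFF and 124.3 to 144 in hSRY-ON livers, and was not tested.

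*Smox*, encoding the oxidase that returns spermine to spermidine, was read by 5 probes, all detected on all 6 arrays. With the brightest, ILMN_1247267, the values were 10.12, 9.68 and 10.62 in hSRY-OFF and 11.03, 10.21 and 11.37 in hSRY-ON livers. Replicates 1 and 3 of the hSRY-ON group lay above every hSRY-OFF array, while hSRY-ON replicate 2 lay among them. The difference of 0.73 ± 0.34 (SE, n = 3 each) was not past the threshold (limma adjusted p 0.138, 95% interval -0.07 to 1.53). The groups overlapped at all 5 probes, whose differences lay between 0.50 and 0.77 with adjusted p-values between 0.127 and 0.278. Without hSRY-ON replicate 2 the differences of these probes were 0.89 to 1.14, and 4 of the 5 were called (adjusted p 0.0134 to 0.0338, and 0.0709 for ILMN_2608052). With array weights 3 were called, at adjusted p-values from 0.0315 to 0.046. Of all tested probes 29.4% were called without hSRY-ON replicate 2 and 44.7% with array weights, against 33.1% as reported.

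The arrays kept a similar order for *Odc1* and *Smox*. Replicate 2 was the lowest of its group, in both groups, at the *Odc1* probe, at all 5 *Smox* probes and at 1 *Srm* probe (ILMN_2809611), which is 7 of the 10 tested probes. Replicate 3 was the highest in both groups at 6 of the 10. The probe of *Oaz2* followed another order, with hSRY-OFF replicate 3 the lowest control. A replicate number names a sample here and was not given as a shared litter or day, so the order is a description of 6 arrays.

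**Figure D3:**
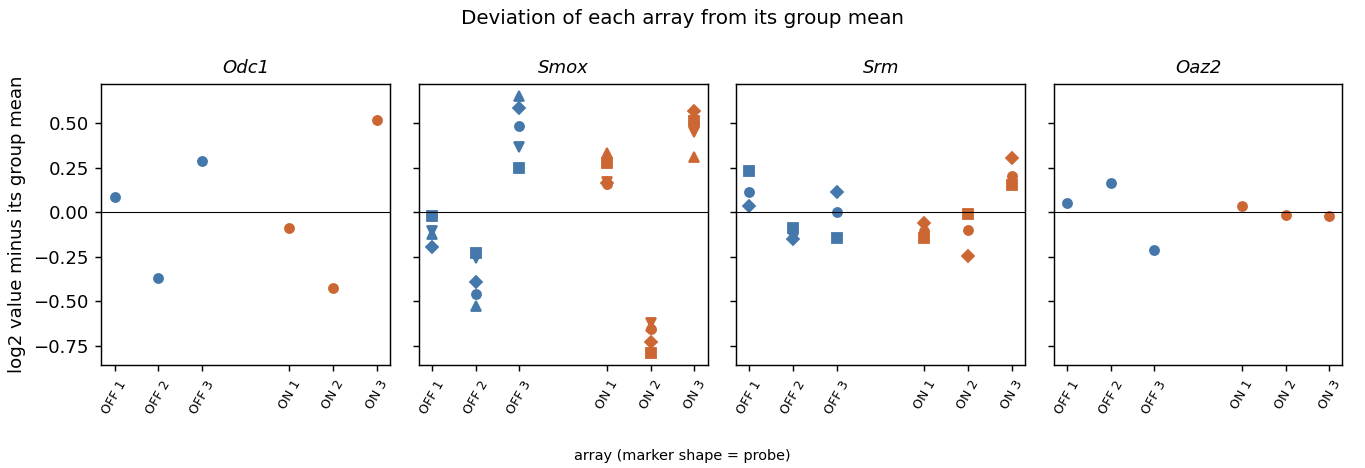
Deviation of each array from its group mean (log2, vertical axis) for the tested probes of *Odc1*, *Smox*, *Srm* and *Oaz2*, with 1 marker shape per probe and blue for hSRY-OFF and orange for hSRY-ON arrays. Replicate 2 lies below 0 in both groups for *Odc1* and for all 5 *Smox* probes, and the *Oaz2* points of the hSRY-ON arrays lie together near 0.

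The genes around the pathway were read from 7 lists of supply, salvage, breakdown, transport, the targets of spermidine and the Myc network, 69 genes in all, of which 61 were matched. They had 92 probes, and 55 were tested. Of these, 9 (16.4%) were called higher and 14 (25.5%) lower, where 15.8% and 17.3% of all tested probes were, and the median difference was -0.03 against 0.02. All hSRY-ON values lay above all hSRY-OFF values at 13 of the 55 and below them at 16, against 25.4% and 24.6% of all tested probes.

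In the list of arginine and ornithine supply 3 of 9 tested probes (33.3%), from 3 genes, were higher and 0 lower. Of all tested probes 15.8% were called higher and 17.3% lower. The list joins enzymes that make and enzymes that use these amino acids, so its counts are no measure of supply. *Arg1*, encoding the arginase that makes ornithine in the urea cycle, had values of 12.21, 12.29 and 12.45 in hSRY-OFF and 13.14, 13.70 and 13.26 in hSRY-ON livers. The groups did not overlap and *Arg1* was higher by 1.05 ± 0.17 (SE, limma adjusted p 0.00413). *Oat*, encoding the aminotransferase that links ornithine with glutamate and proline, went from 11.34, 11.17 and 11.48 to 12.74, 13.09 and 11.85. It was higher by 1.23 ± 0.30 (SE, adjusted p 0.0185), a call lost without hSRY-OFF replicate 1 (0.0627), hSRY-OFF replicate 2 (0.0711) or hSRY-ON replicate 1 (0.0618). *Prodh*, encoding proline dehydrogenase, was higher by 1.27 ± 0.20 (SE, adjusted p 0.00341). *Azin2* (listed as *Adc*), a further antizyme inhibitor, was not detected with either of its 2 probes.

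In the methionine cycle and salvage list 2 of 15 tested probes (13.3%) were higher and 7 (46.7%), from 5 genes, lower. Of all tested probes 15.8% were called higher and 17.3% lower. *Mat2a* (ILMN_2978838), encoding the S-adenosylmethionine synthetase found in most tissues, was higher by 1.004 ± 0.16 (SE, limma adjusted p 0.00394), with 11.21, 10.89 and 11.26 against 12.22, 11.89 and 12.26. A dim probe of *Mat2a* (ILMN_2593368) differed by 0.13 (adjusted p 0.602), and the other 2 were not detected. *Mat2b*, encoding its regulatory subunit, was higher with 1 probe (ILMN_1248381, 0.76 ± 0.19, SE, adjusted p 0.0196) and differed by 0.32 with another (adjusted p 0.0994). The first call was lost without hSRY-OFF replicates 1 or 2 or hSRY-ON replicates 1 or 2 (0.0501 to 0.0791). *Mat1a*, the synthetase of mature liver, differed by -0.04 ± 0.17 (SE, adjusted p 0.866), and the direction of this difference turned without hSRY-ON replicate 1 or 3.

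The lower probes of this list included the salvage of methylthioadenosine, the by-product of both aminopropyl synthases. *Mtap*, the first enzyme of that salvage, was lower with both probes, with differences of -0.81 ± 0.18 (ILMN_2742867, limma adjusted p 0.0131) and -0.68 ± 0.19 (ILMN_2879486, SE, adjusted p 0.0317). The call of the first was lost without hSRY-OFF replicate 1 (0.0558) or 2 (0.0548), and that of the second without any hSRY-OFF array (0.051 to 0.112), with no filter (0.0577) and with the replicate number as a block (0.0508). Of the later salvage enzymes *Adi1* fell by 0.76 ± 0.12 (SE, adjusted p 0.00382) and *Apip* fell by 0.44 ± 0.13 (SE, adjusted p 0.0409). The *Apip* call was lost under 8 of 17 alternatives (up to 0.147). *Cbs*, which passes homocysteine on to cysteine, was lower with both probes (-0.92 and -0.89, adjusted p 0.00226 and 0.00343). *Bhmt*, which returns homocysteine to methionine, fell by 1.29 ± 0.40 (SE, adjusted p 0.0438), lost under 6 of 17 alternatives (up to 0.129).

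Of the genes of acetylation, oxidation and export, 1 of 10 tested probes was higher (10%) and 3 were lower (30%). The shares over all tested probes were 15.8% and 17.3%. *Sat2*, a relative of the acetyltransferase gene *Sat1*, had values of 9.93, 9.97 and 9.95 in hSRY-OFF and 8.26, 8.89 and 8.33 in hSRY-ON livers. The control arrays were nearly alike, the groups did not overlap, and *Sat2* fell by 1.45 ± 0.18 (SE, limma adjusted p 0.00145). *Slc47a1*, encoding an exporter of organic cations, fell by 1.48 ± 0.11 (SE, adjusted p 0.000225), and *Maob*, encoding monoamine oxidase B, fell by 1.63 ± 0.15 (SE, adjusted p 0.000438). *Paox*, the oxidase of acetylated polyamines, differed by -0.20 to -0.37 with its 4 probes, of which 0 passed the threshold (adjusted p 0.0751 to 0.248). *Aoc2*, an amine oxidase gene, was called higher with 1 of 2 tested probes (ILMN_2913069). That probe was detected on 0 hSRY-OFF arrays and was at least 1.77-fold higher (adjusted p 0.00823).

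Among the transporters 2 of 7 tested probes (28.6%) were higher and 3 (42.9%) lower, against 15.8% and 17.3% of all tested probes. *Slc7a2*, encoding a transporter of arginine, lysine and ornithine, went from 7.63, 7.97 and 7.51 to 9.58, 10.25 and 9.23 with ILMN_2642349. It was higher by 1.98 ± 0.26 (SE, adjusted p 0.00191). Its other called probe (ILMN_3038743) was not detected in hSRY-OFF livers and was at least 1.47-fold higher (adjusted p 0.0392), a call lost under 8 of 13 alternatives (up to 0.128). *Atp13a2*, which moves polyamines out of lysosomes, fell by 0.56 ± 0.12 (SE, adjusted p 0.0103, and 0.0525 without hSRY-OFF replicate 1). *Atp13a3* matched 0 probes and was not analysed here.

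**Figure D4:**
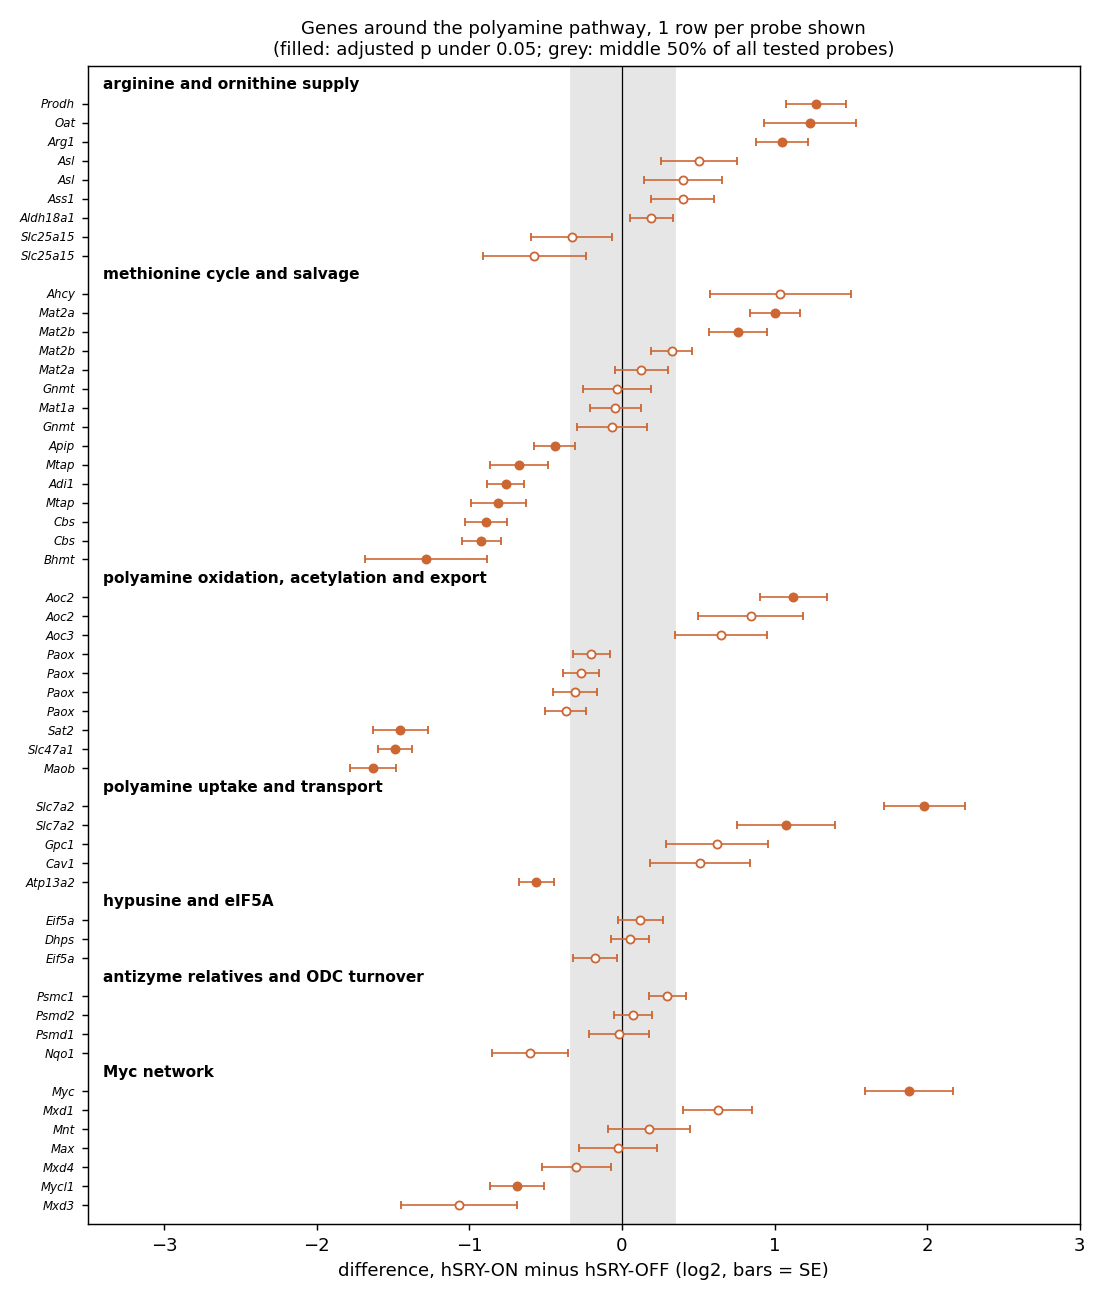
Fitted difference, hSRY-ON minus hSRY-OFF (log2, bars for the SE), of tested probes of genes around the polyamine pathway, in the 7 lists, with filled points for an adjusted p under 0.05 and a grey band for the middle 50% of all tested probes. Among the drawn probes detected in both groups *Maob* lies farthest left at -1.63 and *Slc7a2* farthest right at 1.98, the probes of *Eif5a* and *Dhps* lie in the band, and the points of *Myc*, of the called *Aoc2* probe and of the second *Slc7a2* probe are fitted against undetected hSRY-OFF signal.

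Spermidine donates the side chain of hypusine, an amino acid found in the translation factor encoded by *Eif5a*. In this list 0 of 3 tested probes were called by limma (0 also at an unadjusted p under 0.05). Of all tested probes 15.8% were called higher and 17.3% lower, and a list this short allows no reading of its count. The probes of *Eif5a* differed by -0.18 and 0.12 (adjusted p 0.388 and 0.564) and *Dhps*, the first enzyme of hypusine formation, by 0.05 (adjusted p 0.781). The directions of 0.12 and 0.05 turned under some alternatives, and the probe at -0.18 was called lower (0.0477) when arrays were scaled by a trimmed mean. *Dohh*, the second enzyme, matched 0 probes and was not analysed here. Of the list on antizyme relatives and turnover of the enzyme, 0 of 4 tested probes were called, against the same shares of all tested probes. This list too is short. The probes of *Psmc1* (0.30) and *Nqo1* (-0.60) had an unadjusted limma p under 0.05. *Oaz3*, the antizyme of the testis, was not detected.

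*Odc1* is a classical target of the transcription factor Myc. *Myc* (ILMN_2623526) had values of 5.30, 5.04 and 5.47 in hSRY-OFF livers, none of them detected, and 7.41, 7.56 and 6.47 in hSRY-ON livers, all detected. It was at least 2.65-fold higher (limma adjusted p 0.0033). The other probe of *Myc* (ILMN_1231123) was not detected on any array. *Mycl1* fell by 0.69 ± 0.18 (SE, adjusted p 0.0226), a call lost on leaving out each hSRY-OFF array in turn (0.0554 to 0.0801). Of the 7 tested probes of this network 1 (14.3%) was higher and 1 (14.3%) lower, against 15.8% and 17.3% of all tested probes.

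Markers of the cell types of newborn liver were read as well, and their calls are to be set beside the 15.8% of all tested probes called higher and 17.3% called lower. Of the hepatocyte markers, detected on all arrays at 11 of 12 probes, 4 of 11 tested probes (36.4%) were lower and 0 higher, and their summed normalized intensity was 208100 to 210100 in hSRY-OFF and 181800 to 189000 in hSRY-ON livers. Erythroid markers had 7 of 13 probes (53.8%) higher and 0 lower, with sums of 65250 to 85840 and 85620 to 97580. *Hba-a1* had the same normalized value on all 6 arrays. Without it the sums were 24380, 19010 and 39590 in hSRY-OFF and 50950, 39380 and 51330 in hSRY-ON livers. Stellate cell markers had 5 of 13 probes (38.5%) higher, 4 of them of *Acta2* and 1 of *Des*, and 2 (15.4%) lower, of *Lrat* and *Reln*. Their sums were 14420 to 16220 and 23320 to 25260 with *Acta2*, and 11860 to 13830 in hSRY-OFF against 9425 to 11140 in hSRY-ON livers without it. Endothelial markers had 5 of 10 higher and 1 lower, macrophage markers 1 of 12 higher and 4 lower, and biliary markers 1 of 4 higher and 2 lower. Of the neutrophil markers 0 of 12 were called by limma (1, for *Ltf*, at an unadjusted p under 0.05). Their sums were 60700, 52880 and 62190 in hSRY-OFF and 48380, 42330 and 114300 in hSRY-ON livers. The highest was hSRY-ON replicate 3, which was also the highest hSRY-ON array at the *Odc1* probe, at 4 of the 5 *Smox* probes and at all 3 *Srm* probes. The erythroid sums without *Hba-a1* and the neutrophil sums were lowest in replicate 2 and highest in replicate 3 of both groups. The *Odc1* probe, 4 of the 5 *Smox* probes and 1 *Srm* probe (ILMN_2809611) had this order too. The stellate sums without *Acta2* did not, at 11860, 13830 and 12490 in hSRY-OFF and 9425, 10750 and 11140 in hSRY-ON livers. This order was picked out after the values had been seen, and the other cell types were not compared in this way. The part of these markers in the differences of the polyamine genes was not tested. Markers of the kidney tubule, read as a check for other tissue, were detected on 0 of 6 arrays at all 8 probes.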

How the data were processed

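The authors hybridised total RNA of 6 livers to Illumina MouseRef-8 BeadChips and deposited, per array, a mean bead intensity on a linear scale, not normalized, and a detection p-value against negative control beads. Scanner software and genome build were not given in the sources used here, and arrays on a slide were not identified. The labels name limma and the study TCC, a package for counts, which was not applied to intensities.

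Background was inferred from the detection p-values and corrected by normexp (limma 3.58.1, function nec, offset 16, R 4.3.3). Values were then quantile normalized and taken to log2. Testing was limited to the 10734 probes detected (p under 0.01) on 3 or more of the 6 arrays. Groups, taken from the titles, were compared with lmFit and eBayes without covariates, two-sided, with Benjamini-Hochberg adjustment over all tested probes and a threshold of 0.05. The offset shrinks differences of dim probes, and 3 arrays per group limit the precision. Whether replicates were litter mates was not stated. Where a group detected a probe on no array, a fold is a bound against the lowest detected signal per array. Each probe was tested by itself. The members and lists were chosen with earlier results of these data known. All probes of the members are described. Of the wider lists each gene with a called probe (up to 3 per direction) and a few fixed genes are named, and *Adi1*, *Apip*, *Psmc1*, *Nqo1*, *Oaz3*, *Ltf*, the named markers and the neighbours of *Gm853* were named after their values were seen. Older symbols were matched through RefSeq. No 2 arrays shared more than 1 of 25697 values. The procedure was tested on simulated data. Alternatives covered background correction, offset, scaling, filter, variance model, replicate block, threshold and each array left out. The values of 1 gene that is included in the counts are not reported here.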

Additional observations from a re-analysis of the deposited data

How the results depend on the processing

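The direction of all 10 tested member probes besides *Gm853* held under the alternatives run for them, and 152 of 170 values stayed on their side of the threshold, with 14 gaining and 4 losing a call. The number of member probes called higher, 1 as reported, was 2 with no background correction, with normexp without detection p-values, with an offset of 50 and with limma-trend, 4 with array weights, and 0 with median scaling and at an adjusted p under 0.01. It ranged from 0 to 5 with single arrays left out, with 0 without hSRY-OFF replicate 1, hSRY-OFF replicate 3 or hSRY-ON replicate 1 and 5 without hSRY-ON replicate 2. The number called lower was 0 under all of them. The share of all tested probes called moved as well. It was 33.1% as reported, 44.7% with array weights, 27.7% with median scaling and 29.9% with the replicate number as a block. With single arrays left out it ran from 17.4% without hSRY-OFF replicate 1 and 18.8% without hSRY-OFF replicate 2 to 37.6% without hSRY-ON replicate 3. Counts under these settings are to be set beside these shares. With the replicate number as a block 4 member probes were called higher, *Oaz2* and 3 of *Smox* (adjusted p 0.017 to 0.0378). Same-numbered arrays share only a number in the labels. The correlations of their deviations were 0.025, 0.095 and 0.052, against -0.17 to 0.133 for arrays of unlike number. With 3 arrays per group these values cannot show whether litters or days were shared. The labels give no pairing, so the block is an alternative only. In the lists around the pathway the count of higher probes, 9 as reported, was 5 when detection on all 6 arrays was required (42 probes tested), and 4 to 10 with arrays left out. The count of lower probes, 14, was 8 at an adjusted p under 0.01 and 8 to 16 with arrays left out, with 8 without hSRY-OFF replicate 1 and 9 without hSRY-OFF replicate 2. The count of higher probes was lowest without hSRY-ON replicate 1. The difference of *Gm853* was 2.61 with no background correction, 3.59 with normexp without detection p-values, 3.63 with an offset of 50 and 2.59 with scaling by a trimmed mean on uncorrected values, settings that leave background in the values or add a larger offset. Directions turned only at differences near 0. One probe of *Eif5a* (0.12) was at -0.029 with median scaling, and *Pef1* (-0.02) was at 0.055 with array weights. With arrays left out *Eif5a* ranged from -0.009 to 0.216, *Dhps* from -0.016 to 0.107, *Mat1a* from -0.216 to 0.051, the dim probe of *Mat2a* from -0.001 to 0.274 and *Pef1* from -0.103 to 0.059. Where no cause is named, the cause was not tested. *Azin1*, *Sms* and the hSRY-OFF level of *Gm853* lay below the detection limit, so changes there could not be seen.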
